A study of Mus musculus with 23 samples.

Results

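Orthotopic CT26 tumors were compared with the livers of the mice that carried them, within each mouse. The comparison takes the 9 primary tumor libraries and the 9 pre-metastatic liver libraries of the same 9 mice, matched by the mouse number in the labels, which makes 18 of the 23 libraries of the series. CT26 is a single mouse colon carcinoma line of BALB/c origin, and here it had been injected into the wall of the cecum of male BALB/c mice aged 4 to 6 weeks, so that all tumors derive from 1 cell line and 1 inbred strain. Tumor and liver were taken 3 weeks later from the same animal. The 5 control livers came from sham-operated male BALB/c mice that had been injected with culture medium and carried no tumor, and they serve as a background only. Bulk poly(A) RNA was sequenced, so that in every result below fewer cells of a type and less RNA per cell cannot be told apart.

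The liver parenchyma is made of hepatocytes, which secrete most plasma proteins and use a set of liver-specific enzyme forms for sugar, amino acid and lipid metabolism. Sinusoidal endothelial cells and Kupffer cells, the resident macrophages, line its capillaries. A tumor grown from a carcinoma line holds the dividing line cells together with host fibroblasts, vessels and immune cells drawn to it.

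The libraries held 44587556 to 79773163 counts, with medians of 55927997 in the tumors and 55500961 in the livers. The 10 genes with most counts took 4.79% to 5.74% of a tumor library and 15.0% to 27.9% of a liver library. Levels are given as RPKM on the TMM scale, that is counts scaled to the length of the gene and to the effective size of the library, and 3 values in a row are the lowest, the median and the highest of the 9 libraries of a tissue. Fold changes are log2 values of tumor minus liver with their standard error (SE), from edgeR's quasi-likelihood test with the mouse as a block, and p-values are adjusted over all 19749 genes tested (Benjamini-Hochberg).

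Libraries of 3 mice stood apart in the genes of the other tissue. For 17 genes with at least 20 RPKM in every tumor and at most 0.2 RPKM in every control liver, such as Hmga2, Wnt10a and Ccnb1, the median level in the liver of mouse M6 was 4.3% of that in its own tumor, against 0.408% to 1.07% in the other 8 matched livers and 0.163% to 0.211% of the median tumor in the control livers, which the choice of genes keeps low. Hmga2, a chromatin protein of embryonic and tumor tissue, read 2.52 RPKM in the liver of M6 and 0.028 to 0.275 in the other 8. In the opposite direction, the 26 genes of secreted hepatocyte proteins stood at 0.129% of the liver level in the tumor of M10 and 0.188% in the tumor of M12, against 0.00509% to 0.0363% in the other 7 tumors. Albumin mRNA read 60.1 and 118 RPKM in those tumors and 1.93 to 9.66 in the others. The part of these libraries in the largest fold changes shows in the fit without the 3 mice, whose values are given beside them.

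**Figure D1:**
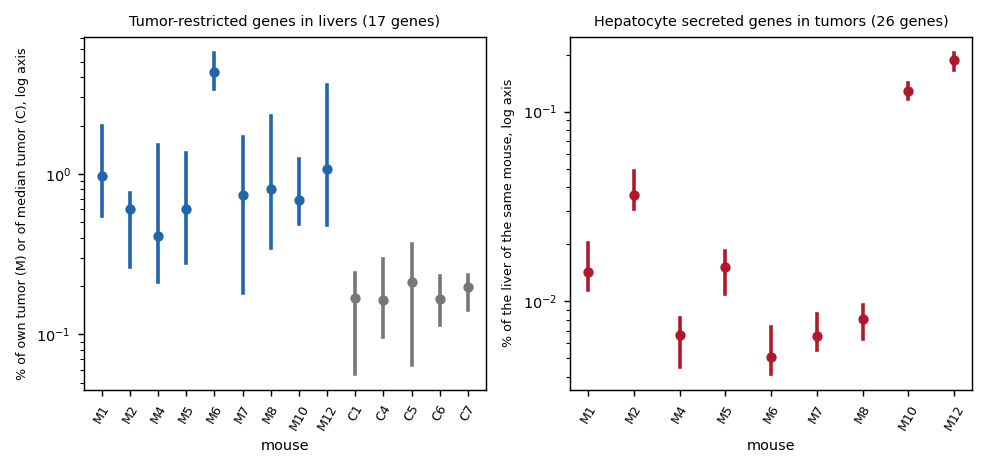
Median (point) and quartiles (bar) over genes of the level in each library, as a percent of the level in the other tissue of the same mouse (log axis). On the left are 17 tumor-restricted genes in the 9 matched livers and, against the median tumor, in the 5 control livers; on the right are 26 hepatocyte secreted genes in the 9 tumors. The liver of M6 stands at 4.3% and the tumors of M10 and M12 at 0.129% and 0.188%.

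Tumor and liver differed in most genes. Of 19749 genes tested, 8670 (43.9%) were higher in the tumor and 7659 (38.8%) were higher in the liver, together 82.7%. By the test against a 2-fold change 51.3% passed, with 5273 genes (26.7%) higher in the tumor and 4868 (24.6%) higher in the liver. The 9 tumors and the 9 livers did not overlap in 5588 genes (28.3%) higher in the tumor and 5430 (27.5%) higher in the liver. In 9 of 9 mice, 6997 genes (35.4%) were higher in the tumor and 6355 (32.2%) in the liver. Fold changes past 32 were more frequent toward the liver, with 1793 genes against 1091. Without M6, M10 and M12 the counts were 7723 higher in the tumor and 7087 higher in the liver, among 18789 genes tested.

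The direction of modest changes depended on the scaling. A few secreted proteins fill a large part of a liver library, and TMM scaling, which sets the trimmed mean of the fold changes to 0, gave a median log2 fold change of 0.145 over all genes, while scaling by total counts gave 1.32, a shift of 1.18. With total counts, 13323 genes (67.5%) were higher in the tumor and 4151 (21.0%) in the liver, and 1800 genes called by both turned direction. Directions that hold under all 4 scalings tried (TMM, DESeq2 size factors, upper quartile and total counts) were found for 8443 genes (42.8%) in the tumor and 4151 (21.0%) in the liver, and for each gene list below the members that keep their direction in all 4 are counted. Over all genes tested the median log2 fold change of 0.145 is the value to set beside each list's median. Likewise, the shares of all genes are to be set beside each list's counts. These are 43.9% in the tumor and 38.8% in the liver with TMM, and 42.8% and 21.0% under all 4 scalings.

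Promoters of 7 genes are shown here because they stand for the programs that separate the tissues: Dkk2 and Rpl39l are among the largest rises, Mug1 and Apob among the largest falls, and Alb is the most abundant liver mRNA. Pcna and Plaur come from the cell cycle list and the list of matrix proteases and inhibitors. Each is the most abundant in the tumor among the members considered, which have 1 promoter listed that holds the motif marked here. Alb was chosen by the same rule from the secreted hepatocyte proteins, by its level in the liver. The motif marked in Alb, Pcna and Plaur was therefore a condition of the choice. Each of the 7 promoters runs from 250 bases before to 50 bases after the start in RefSeq (GRCm38.p6), 5′ to 3′ on the gene's strand. Capitals mark TATAAA (a core promoter element), the AP-1 motif (TGA, any base and TCA) and GTTAAT (a half-site of the hepatocyte factors of the HNF1 family) in Dkk2, Rpl39l, Mug1 and Apob, GTTAAT in Alb, the CCAAT box in Pcna and the AP-1 motif in Plaur. Each was searched on both strands, so that a motif may also stand in its reverse form, and Rpl39l holds none of the 3.
Dkk2 (chr3:132085042-132085341, plus strand): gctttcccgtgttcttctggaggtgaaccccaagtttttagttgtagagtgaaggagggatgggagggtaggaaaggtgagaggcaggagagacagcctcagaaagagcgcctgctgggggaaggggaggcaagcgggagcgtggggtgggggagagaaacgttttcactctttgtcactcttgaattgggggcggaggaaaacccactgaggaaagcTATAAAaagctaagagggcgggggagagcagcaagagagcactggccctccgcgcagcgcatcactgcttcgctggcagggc
Rpl39l (chr16:10169978-10170277, plus strand): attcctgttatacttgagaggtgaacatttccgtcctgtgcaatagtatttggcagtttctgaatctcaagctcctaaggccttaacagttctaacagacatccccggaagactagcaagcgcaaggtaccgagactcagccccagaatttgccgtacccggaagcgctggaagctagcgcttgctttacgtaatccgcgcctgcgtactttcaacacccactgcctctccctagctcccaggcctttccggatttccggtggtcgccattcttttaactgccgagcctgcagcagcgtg
Mug1 (chr6:121838291-121838590, plus strand): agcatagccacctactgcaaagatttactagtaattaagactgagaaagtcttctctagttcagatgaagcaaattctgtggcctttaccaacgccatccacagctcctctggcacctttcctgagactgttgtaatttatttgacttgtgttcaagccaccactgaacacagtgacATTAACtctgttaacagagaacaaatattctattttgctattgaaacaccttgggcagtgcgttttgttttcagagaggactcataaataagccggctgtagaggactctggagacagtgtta
Apob (chr12:7977427-7977726, plus strand): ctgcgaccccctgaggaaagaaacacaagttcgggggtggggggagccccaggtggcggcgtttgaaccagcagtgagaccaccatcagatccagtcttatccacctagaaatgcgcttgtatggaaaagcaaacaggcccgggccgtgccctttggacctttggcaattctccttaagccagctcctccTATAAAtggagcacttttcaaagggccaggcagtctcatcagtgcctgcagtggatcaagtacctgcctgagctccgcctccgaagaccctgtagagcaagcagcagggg
Alb (chr5:90460620-90460919, plus strand): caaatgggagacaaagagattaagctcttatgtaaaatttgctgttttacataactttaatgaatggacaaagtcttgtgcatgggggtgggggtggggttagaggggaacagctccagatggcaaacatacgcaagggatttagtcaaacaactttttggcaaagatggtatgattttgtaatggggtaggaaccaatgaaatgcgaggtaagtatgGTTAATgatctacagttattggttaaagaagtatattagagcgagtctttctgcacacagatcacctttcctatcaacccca
Pcna (chr2:132253131-132253430, minus strand): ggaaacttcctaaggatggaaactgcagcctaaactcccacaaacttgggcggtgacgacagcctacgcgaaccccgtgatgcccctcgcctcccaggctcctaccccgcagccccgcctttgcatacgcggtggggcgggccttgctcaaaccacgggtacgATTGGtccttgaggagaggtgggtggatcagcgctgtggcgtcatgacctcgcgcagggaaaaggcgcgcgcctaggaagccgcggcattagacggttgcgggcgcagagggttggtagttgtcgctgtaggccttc
Plaur (chr7:24462233-24462532, plus strand): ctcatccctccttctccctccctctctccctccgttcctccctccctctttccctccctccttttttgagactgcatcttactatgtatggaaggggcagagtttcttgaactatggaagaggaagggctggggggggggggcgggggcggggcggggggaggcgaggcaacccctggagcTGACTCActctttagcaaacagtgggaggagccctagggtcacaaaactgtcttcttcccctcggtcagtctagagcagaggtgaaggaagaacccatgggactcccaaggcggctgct

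Of the 12761 tested genes with a promoter in the table, 4.91% hold GTTAAT, 5.98% the AP-1 motif and 38.2% the CCAAT box. GTTAAT was found in 8 of 20 promoters of secreted hepatocyte proteins, but in 3 of 17 of hepatocyte enzymes and 1 of 12 of hepatocyte transporters. Outside the hepatocyte lists it was found in 2 of 14 of growth factors, 1 of 11 of the matrix protease list and 0 of 21 of cell cycle genes. A repeat of the hepatocyte factor HNF4 (CAAAGTCCA), in 0.533% of all, was found in 0 of 20, 2 of 17 and 0 of 12 of the 3 hepatocyte lists. The CCAAT box was found in 15 of 21 promoters of cell cycle genes (71.4%) and also in 7 of 12 of hepatocyte transporters. The AP-1 motif was found in 4 of 11 of the matrix protease list, 4 of 14 of the growth factor list and 5 of 20 of the secreted hepatocyte proteins, on both sides of the comparison. A match of letters is a description of the window and not a binding site.

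The hepatocyte program was far lower in the tumors than in the livers. All 26 secreted proteins, all 26 metabolic enzymes, all 15 transporters and all 16 transcription factors of the lists were higher in the liver, beside 38.8% of all genes, with median log2 fold changes of -12.37, -11.98, -11.92 and -10.57. Without M6, M10 and M12 these medians were -12.98, -13.16, -13.44 and -11.12. The summed level of the 26 secreted proteins ran from 20.2 to 449 RPKM in the tumors and from 113633 to 257824 in the livers. Foxa1 was the only one of these genes whose direction did not hold under total counts (log2 fold change -0.99 with TMM and 0.20 with total counts).

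Albumin (Alb, chromosome 5 from 90460870 to 90476602), the main plasma protein, measured 1.93, 2.94 and 118 RPKM in the tumors and 20296, 35604 and 76630 in the livers. Its fold change was -12.73 (SE 0.94, adjusted p = 1.03e-07), and -13.26 without the 3 mice. The groups do not overlap, beside 27.5% of all genes without overlap toward the liver. The tumors of M10 and M12 make up the upper end of the tumor range. Apob (chromosome 12 from 7977634 to 8016839), the core protein of very low density lipoprotein, measured 0.036, 0.0496 and 1.55 in the tumors and 716, 796 and 915 in the livers, the narrowest liver range among the largest falls. Its fold change was -13.05 (SE 0.94, adjusted p = 8.78e-08) and -13.77 without the 3 mice.

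Hnf4a (chromosome 2 from 163506809 to 163572907), the nuclear receptor that maintains hepatocyte identity, measured 0.00271, 0.00865 and 0.365 in the tumors and 132, 207 and 278 in the livers (log2 fold change -12.09, SE 1.04, adjusted p = 4.28e-07). Foxa2 and Foxa3, pioneer factors of the same network, read at most 0.0261 and 0.117 RPKM in any tumor. Cebpa, which also acts in myeloid cells and fat cells, differed less, with 5.83, 8.09 and 15.7 in the tumors and 155, 311 and 455 in the livers (log2 fold change -4.96). Arg1, arginase of the urea cycle and of some macrophages, was likewise present in every tumor at 17, 90.9 and 165, against 480, 836 and 1980 in the livers, and its fall of 3.41 on the log2 scale was the smallest of the 26 enzymes.

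The 12 largest falls among abundant genes included Mug1, a protease inhibitor of plasma, Apob, Mat1a, Slco1b2, Akr1c6, Fabp1, Rgn, Saa4, Cyp2c29, Cyp1a2 and Serpina3k. Their log2 fold changes lay between -13.18 and -12.82. The 12 were chosen among genes lower in the tumor in 9 of 9 mice. Mug1 (chromosome 6 from 121838496 to 121889057) measured 0.0469, 0.0668 and 3.44 in the tumors and 1060, 1362 and 1958 in the livers. Cyp1a2 (chromosome 9 from 57676937 to 57683655), a drug-metabolizing cytochrome of the central lobule, measured 0, 0.0109 and 0.318 in the tumors and 127, 352 and 617 in the livers. Its fold change moved from -12.83 to -14.98 without the 3 mice, the largest such shift of the 12.

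**Figure D2:**
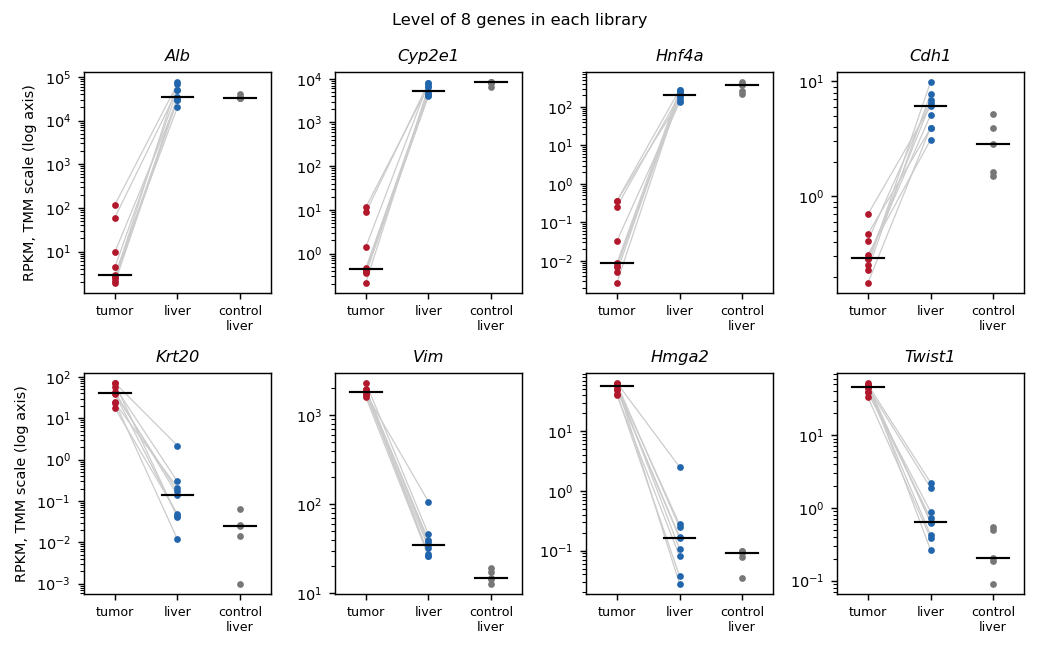
Level of 8 genes (RPKM on the TMM scale, log axis, values under 0.001 drawn at 0.001) in the 9 primary tumors, the 9 matched livers and the 5 control livers; gray lines join tumor and liver of a mouse and black bars are medians. Tumors and livers do not overlap in any of the 8 genes, beside 28.3% of all genes toward the tumor and 27.5% toward the liver. The tumors of M10 and M12 are the 2 high points of Alb, and the liver of M6 is the high point of Krt20, Vim and Hmga2.

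In most families of enzymes and carriers that have a liver form, the liver form held a smaller share in the tumor. The share of the liver form in the summed RPKM of its family does not depend on how libraries are scaled, and it was lower in the tumor in 19 of 21 families (exact sign-flip test over the 9 mice, two-sided, adjusted p = 0.00432 in 18 of them, where 0.00391 is the smallest p that 9 mice allow, and 0.0082 for fructose-bisphosphatase). Phosphofructokinase did not pass the test, and the share of Ldha was higher in the tumor by 0.183 percentage points. The summed level of the family on the TMM scale had a lower median in the tumors in 19 of the 21, all but pyruvate kinase and phosphofructokinase. A lower share therefore does not say that the other forms rose. Unlike the share, this sum depends on the scaling, and it was not counted under the others.

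In glycolysis, the liver pyruvate kinase Pklr fell from 79.5, 88.6 and 93.7% to 0, 0.0015 and 0.0757% of pyruvate kinase mRNA, of which Pkm made up the rest. Pfkl, the liver form of phosphofructokinase, stayed the main form in both tissues at 71, 77.2 and 83.8% in livers and 68.5, 74.8 and 79% in tumors (exact sign-flip p = 0.109), and by counts in place of RPKM its difference of -10.95 points passed the test. The share of Ldha was 99.55, 99.69 and 99.87% in the livers and 99.78, 99.88 and 99.95% in the tumors, so that the muscle-type subunit prevailed in both.

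For glucose release and storage, the transporter Slc2a2 (GLUT2) held 92.5, 95.5 and 97.5% of its family in the livers and a median of 0.0172% in the tumors, where Slc2a1 and Slc2a3 made up the rest. The cytosolic carboxykinase Pck1 held 98.7, 99.79 and 99.91% in livers and 0.094, 0.466 and 6.44% in tumors. The glycogen synthase Gys2 held 96.7, 98.5 and 99.5% in livers and 0, 0.0434 and 1.38% in tumors. In these families the liver form was at or under 6.44% in every tumor. The fructose-bisphosphatase family was nearly gone from the tumors, with a median summed level of 0.209 RPKM against 786 in the livers, and the share of Fbp1 there (30.7, 81.9 and 100%) rests on few counts, 9 to 243 of Fbp1 a tumor.

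In amino acid and lipid metabolism, the glutaminase Gls2 held 97.7, 98.9 and 99.45% in the livers and 3.28, 5.14 and 8.69% in the tumors, and the adenosyltransferase Mat1a 91.8, 95.7 and 97.8% in livers and 0.0175, 0.148 and 8.31% in tumors. Transferrin receptor 2 (Tfr2), the iron sensor of hepatocytes, held 95.5, 96.8 and 98.2% in livers and 0, 0.337 and 3.4% in tumors. A pair of liver forms stayed dominant in the tumor despite a lower share, as Cpt1a held 89, 93.8 and 94.1% of carnitine palmitoyltransferase mRNA in the tumors and Arg1 94.3, 96.6 and 97.9% of arginase mRNA. Shares of counts in place of RPKM gave the same sign in all 21 families.

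**Figure D3:**
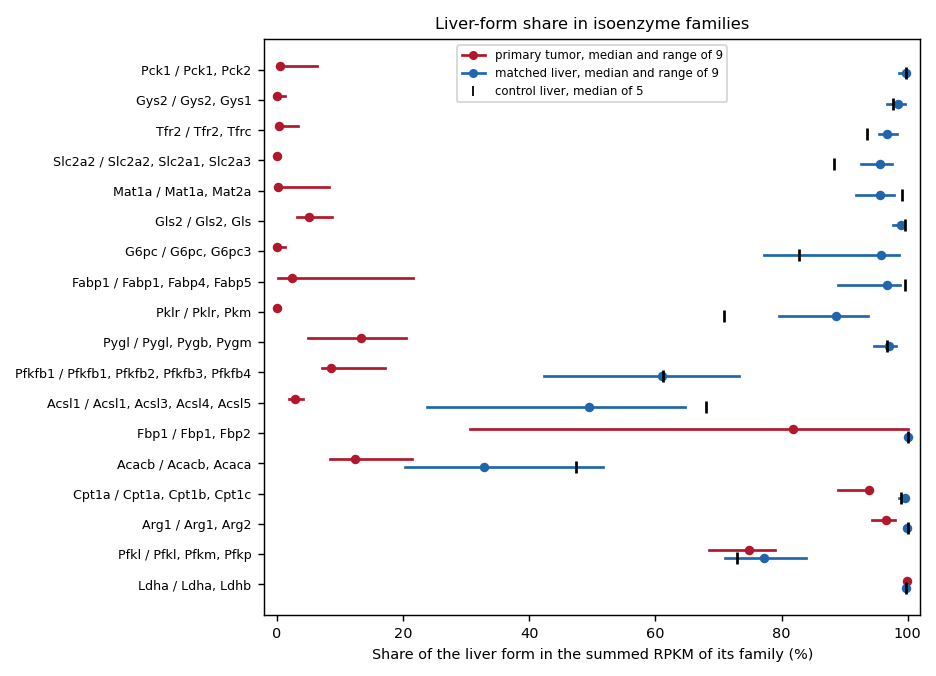
Share of the liver form (named first) in the summed RPKM of its isoenzyme family, in percent, as the median (point) and range (bar) of the 9 primary tumors and the 9 matched livers; the tick is the median of the 5 control livers. In most of the 18 families shown of 21, ranges of tumor and liver do not overlap, and they overlap for Pfkl, Ldha, Acacb and Fbp1.

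Acute-phase proteins, which hepatocytes secrete during inflammation, were higher in the liver in 16 of 16 genes, beside 38.8% of all genes. Under all 4 scalings 15 of 16 were, beside 21.0%, and the median log2 fold change was -11.58. Saa1, serum amyloid A, measured 0.682, 1.33 and 14.8 in the tumors and 2308, 9138 and 16925 in the livers, with 48.2, 262 and 1942 in the control livers. Saa3, the form made by macrophages and other cells outside the liver, was the exception with 18.5, 42.9 and 196 in the tumors and 42.3, 118 and 161 in the livers, overlapping ranges and a log2 fold change of -1.09 (adjusted p = 0.0353), which was 0.10 and not past the threshold with total counts. Without any 1 of M1, M4, M5, M7, M8 or M12 it also lost the threshold (-1.12 to -0.88), as it did with upper-quartile scaling (-0.91) and with no filter on low counts (-1.02). Saa1 and Saa2 are near-identical copies whose reads the counting could split.

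The 12 largest rises among abundant genes were Dkk2, Il1rl1, Rpl39l, Hmga2, Fosl1, Esm1, 1700012B09Rik, Nppb, Wnt10a, Krt20, Sema3a and Apod, with log2 fold changes between 7.75 and 8.51. They were chosen among genes higher in the tumor in 9 of 9 mice. Dkk2 (chromosome 3 from 132085243 to 132180304), a secreted modulator of Wnt signalling, measured 18.3, 25.6 and 44.9 in the tumors and 0.0212, 0.0488 and 0.608 in the livers (log2 fold change 8.51, SE 0.45, adjusted p = 5.75e-09, and 9.47 without the 3 mice). Il1rl1 (chromosome 1 from 40404864 to 40465418), the receptor of interleukin 33, measured 11.8, 30.2 and 48.1 in tumors against 0.0134, 0.0741 and 0.98 in livers. In 11 of the 12 genes the highest liver value was that of M6, and for Nppb, a natriuretic peptide, it was that of M12.

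Fosl1 (chromosome 19 from 5447698 to 5455938), an AP-1 subunit, measured 45.5, 56.1 and 83.1 in the tumors and 0.0369, 0.139 and 2.36 in the livers. Esm1 (chromosome 13 from 113209659 to 113218104), a proteoglycan of activated endothelium and of some tumors, measured 74.3, 121 and 202 in tumors against 0.0665, 0.341 and 5.02 in livers. Wnt10a (chromosome 1 from 74792019 to 74804176), a Wnt ligand, measured 21.2, 42.2 and 56.4 in tumors against 0, 0.0783 and 1.79 in livers. None of the 3 overlapped between tissues, beside 28.3% of all genes without overlap toward the tumor. Their log2 fold changes of 8.07, 8.06 and 7.96 became 8.76, 8.85 and 8.80 without the 3 mice. Rpl39l is a near-copy of the ribosomal gene Rpl39, so that its reads are uncertain.

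Most colon epithelium genes tested were lower in the tumors than in the livers. Of 17 tested colon epithelium genes, 3 were higher in the tumor and 13 in the liver, beside 43.9% and 38.8% of all genes. Under all 4 scalings 3 and 11 were, beside 42.8% and 21.0%, and the median was -4.24. Cdh1 (chromosome 8 from 106603350 to 106670247), E-cadherin of epithelial junctions, measured 0.177, 0.289 and 0.698 in the tumors and 3.11, 6.11 and 9.9 in the livers (log2 fold change -4.11, SE 0.27, adjusted p = 3.63e-08). Epcam measured 0.0108, 0.0405 and 1.21 in tumors against 0.522, 0.932 and 5.28 in livers, with the highest tumor value in M2. The simple keratins Krt8 and Krt18, which hepatocytes also make, read 0.0927, 0.658 and 3.36 and 1.75, 4.39 and 7.83 in the tumors. The series holds no normal colon, so these markers compare the tumors with the liver only.

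Krt20 (chromosome 11 from 99428385 to 99438153), a keratin of differentiated intestinal cells used to mark colorectal origin, was the clear exception. It measured 17.9, 40 and 71.9 in the tumors and 0.0119, 0.137 and 2.19 in the livers, of which 8 lay at or under 0.297 (log2 fold change 7.82, SE 0.53, adjusted p = 5.1e-08). Cdx2, the intestinal homeobox factor, and Cdh17, an intestinal cadherin, passed the test as well, at no more than 0.466 and 0.598 RPKM in any tumor. Guca2a, Agr2, Cdx1, Gpa33 and Phgr1 had too few counts for the test.

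Mesenchymal transcripts were abundant. Higher in the tumor were 9 of 12 genes and higher in the liver 2, beside 43.9% and 38.8% of all genes. Under all 4 scalings 9 and 1 were, beside 42.8% and 21.0%, and the median was 2.04. Vim (chromosome 2 from 13574311 to 13582826), the mesenchymal intermediate filament, measured 1588, 1839 and 2302 in the tumors and 25.9, 35 and 107 in the livers (log2 fold change 5.64, SE 0.25, adjusted p = 1.4e-09). Twist1, a factor of epithelial-mesenchymal transition, measured 33.2, 45.5 and 52.4 in tumors against 0.265, 0.65 and 2.23 in livers. S100a4 measured 854, 1075 and 1400 in tumors against 3.97, 8.02 and 57.5 in livers, and the highest liver value of Vim and S100a4 was again that of M6. N-cadherin (Cdh2) went the other way with 3.34, 4.09 and 4.91 in the tumors and 8.76, 15.5 and 17.9 in the livers (log2 fold change -1.80).

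Genes tied to the CT26 line and to the sex of the host were also read. Myc measured 23.6, 33.7 and 47.9 in the tumors and 1.82, 3.5 and 18.2 in the livers (log2 fold change 2.88), and Trp53 rose by 1.63. Cdkn2a, a tumor suppressor, read 0.557, 1.1 and 2.44 in the tumors and 0.052, 0.141 and 0.495 in the livers. The Y-linked helicase Ddx3y measured 0.981, 1.62 and 2.04 in the tumors and 15.2, 20.8 and 23.4 in the livers (log2 fold change -3.67, SE 0.12), and Eif2s3y, Kdm5d and Uty fell by 2.98 to 3.75 on the log2 scale. Xist, the X-inactivation RNA of female cells, stayed at or under 0.0464 RPKM in every library of both tissues.

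Cell division separated the tissues in every gene of its list. All 25 cell cycle genes were higher in the tumor under all 4 scalings, beside 42.8% of all genes. Their median log2 fold change was 4.35. Mki67, the proliferation antigen, measured 20.1, 24.7 and 29.1 in the tumors and 0.424, 1.34 and 2.55 in the livers, and Top2a, the replicative topoisomerase, 60.3, 75.6 and 106 in tumors against 0.505, 1.51 and 4.69 in livers. Bub1 of the spindle checkpoint measured 6.81, 9.72 and 12.6 in tumors against 0.0435, 0.154 and 0.45 in livers (log2 fold change 5.91, SE 0.33). Control livers read lower than the matched livers, with 0.0675, 0.137 and 0.268 for Mki67 and 0.106, 0.127 and 0.241 for Top2a.

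Amino acid uptake and synthesis went with it: 15 of 16 genes were higher in the tumor under all 4 scalings, beside 42.8% of all genes. The list's median was 4.17. Phgdh (chromosome 3 from 98313171 to 98339969), the first enzyme of serine synthesis, measured 83.3, 132 and 162 in the tumors and 0.589, 1.06 and 5.99 in the livers (log2 fold change 6.55, SE 0.42, adjusted p = 2.99e-08). Psat1, the next enzyme, measured 46.2, 65.8 and 89.1 in tumors against 0.935, 1.93 and 5.07 in livers, while Psph, the last, differed less, with 7.04, 9.76 and 13.3 in tumors against 4.97, 5.38 and 8.7 in livers. The glutamine and neutral amino acid carrier Slc1a5 measured 33.5, 52.9 and 60.5 in tumors against 0.768, 1.55 and 4.83 in livers. Bcat1, the cytosolic branched-chain transaminase, measured 4.17, 5.75 and 7.79 in tumors against 0.00614, 0.0252 and 0.234 in livers (log2 fold change 7.30). Shmt2 was the 1 gene lower in the tumor (-0.41), a direction that turned to 0.77 with total counts.

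**Figure D4:**
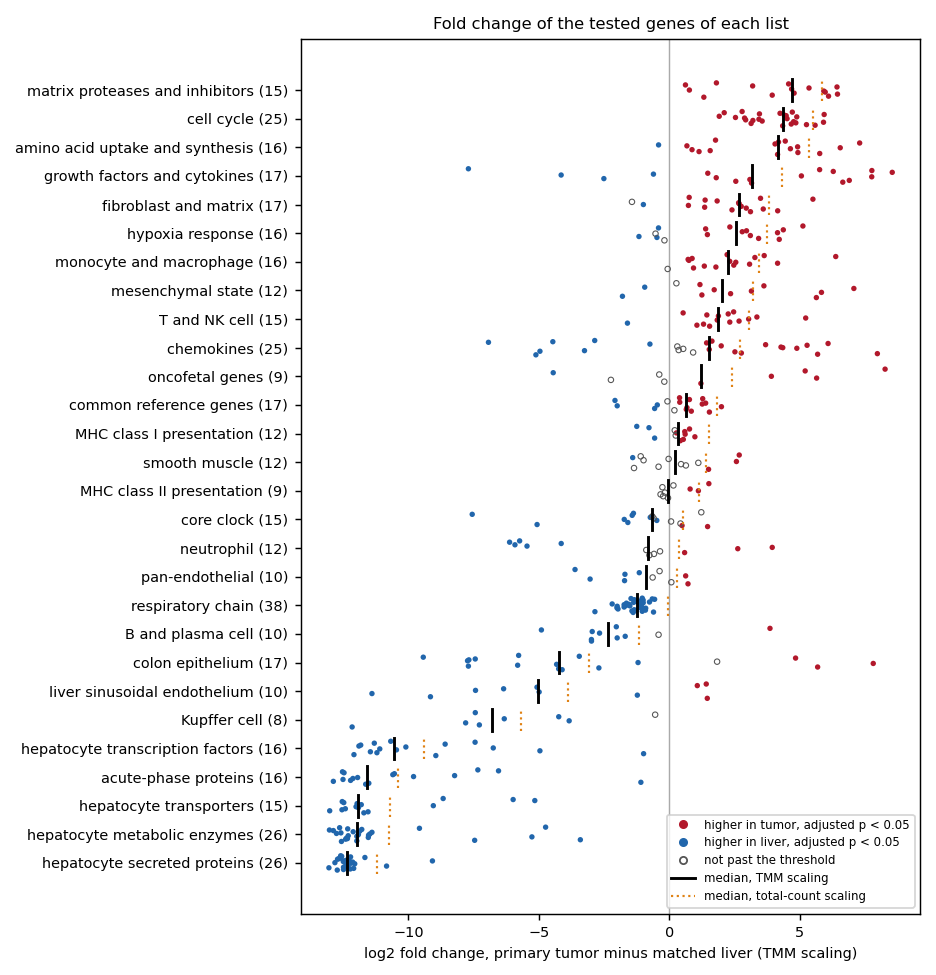
Log2 fold change, tumor minus matched liver, of every tested gene (point) of the 28 lists with at least 8 tested genes, ordered by the list's median (black bar); the dotted bar is the median with total-count scaling. Hepatocyte lists lie near -12, cell cycle and matrix protease lists above 4, and the medians of the pan-endothelial, neutrophil, MHC class II and core clock lists change side with the scaling.

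Hypoxia genes did not move as 1 block. Of 16, 11 were higher in the tumor under all 4 scalings, beside 42.8% of all genes. With TMM 3 were higher in the liver, beside 38.8%, and none of them kept that direction with total counts. Slc16a3, the lactate exporter, measured 10.1, 14.3 and 24.3 in the tumors and 0.0795, 0.409 and 1.04 in the livers (log2 fold change 5.12), and Ankrd37 3.67, 6.62 and 10.3 in tumors against 0.185, 0.373 and 0.724 in livers. Car9, the membrane carbonic anhydrase, measured 2.54, 8.62 and 30.9 in tumors against 0.169, 0.386 and 4.18 in livers, the widest tumor range of the list's rising genes by ratio. Vegfa, the endothelial growth factor, had overlapping levels of 16.7, 23.5 and 41.5 in the tumors and 19.7, 27.9 and 37.3 in the livers (log2 fold change -0.19, adjusted p = 0.306), and with total counts it was 0.998. Ldha read 526, 613 and 988 in tumors against 644, 839 and 1435 in livers, a difference of -0.41 with TMM and 0.77 with total counts, and the TMM call was lost without any 1 of M4, M6, M7, M10 or M12 (-0.42 to -0.29), with upper-quartile scaling (-0.23) and with no filter on low counts (-0.34).

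Subunits of the respiratory chain were the clearest case of a direction set by the scaling. All 38 were higher in the liver with TMM (median -1.24), beside 38.8% of all genes. With total counts 15 were higher in the liver and 7 in the tumor (median -0.06), beside 21.0% and 67.5%. The 15 kept their direction under all 4 scalings. Ndufa4, a subunit of cytochrome oxidase, was farthest toward the liver under both, with 71.5, 87 and 124 in the tumors and 529, 616 and 833 in the livers (-2.85 with TMM and -1.67 with total counts). Uqcrfs1 of complex III followed at -2.19 and -1.01, and Atp5b of the ATP synthase stood at the other end with -0.56 and 0.62. On the TMM scale Atp5b was also the only subunit whose tumors and livers overlapped, where 27.5% of all genes had no overlap toward the liver.

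**Figure D5:**
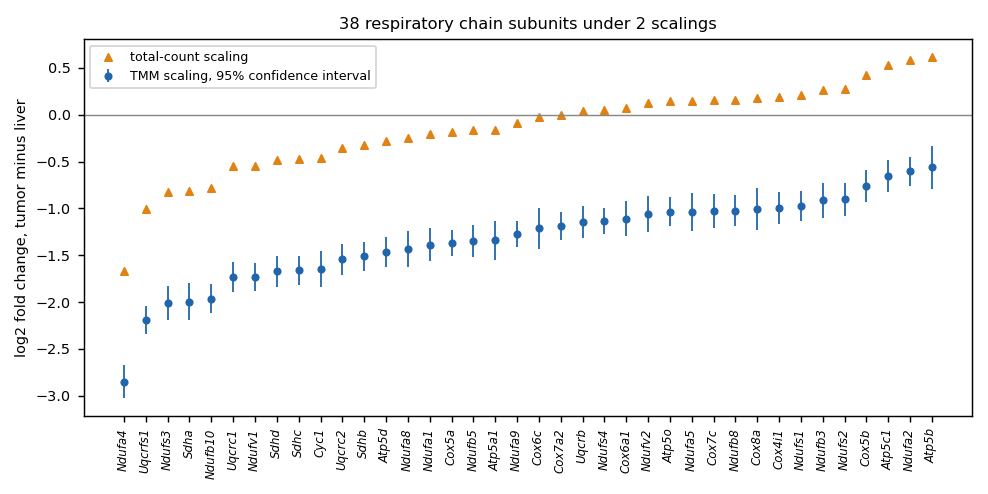
Log2 fold change, tumor minus matched liver, of 38 respiratory chain subunits, with TMM scaling (points with 95% confidence intervals) and with total-count scaling (triangles). All points lie under 0 with TMM, and the triangles lie on both sides of it, from Ndufa4 to Atp5b.

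Matrix proteases and their inhibitors were higher in the tumor in 15 of 15 genes under all 4 scalings, beside 42.8% of all genes, with a median of 4.69. Timp1, an inhibitor of metalloproteases, measured 121, 214 and 444 in the tumors and 1.47, 2.06 and 11 in the livers (log2 fold change 6.43, SE 0.32, adjusted p = 3.7e-09). Mmp3, stromelysin, measured 16.6, 42.8 and 76.1 in tumors against 0.114, 0.643 and 2.43 in livers. The urokinase Plau and its receptor Plaur rose together by 4.69 and 5.36. Mmp12 and Mmp10 varied most among the tumors by the ratio of highest to lowest, with 1.24, 10.3 and 37.4 and 0.399, 1.62 and 11.

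Fibroblast and matrix genes were higher in the tumor in 15 of 17 genes, beside 43.9% of all genes. Higher in the liver was 1, Lum, beside 38.8%. The direction of Lum was lost with total counts, and its call was lost without M4 (-0.88), without M8 (-0.94) or with upper-quartile scaling (-0.82). Col1a2 measured 174, 231 and 297 in the tumors and 5.36, 13.8 and 23.8 in the livers, and Col1a1 32.5, 75.2 and 90.7 in tumors against 3.01, 8.02 and 15.1 in livers. Tnc, tenascin of wounds and tumor stroma, measured 2.62, 6.25 and 14.2 in tumors against 0.0352, 0.13 and 0.239 in livers (log2 fold change 5.51). Decorin (Dcn), a fibroblast proteoglycan, overlapped between the tissues, with 67.3, 144 and 304 in tumors against 35.3, 106 and 148 in livers (0.73, adjusted p = 0.0347), a call that was lost without any 1 of M1, M2, M5, M7, M8, M10 or M12 (0.53 to 0.76) and without M6, M10 and M12 together (0.57), and Fap, a marker of activated fibroblasts, read no more than 2.35 in any tumor. How much of these levels came from line cells and how much from host cells was not tested.

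Among growth factors and cytokines, 13 of 17 tested were higher in the tumor under all 4 scalings, beside 42.8% of all genes. In the liver 4 were higher with TMM, beside 38.8% of all genes, and 3 under all 4, beside 21.0%. Ligands of the EGF receptor were in the first group: Ereg (epiregulin) measured 8.51, 20.3 and 32.8 in the tumors and 0.0279, 0.0612 and 0.4931 in the livers (log2 fold change 7.77, SE 0.41), Hbegf 25.6, 37.8 and 68.6 in tumors against 0.303, 0.642 and 2.28 in livers, and Areg 1.51, 3.54 and 10.4 in tumors against 0, 0.0211 and 0.195 in livers. Members of the interleukin 6 family rose as well. Il11 measured 2.85, 5.03 and 18.4 in tumors against 0, 0.0127 and 0.132 in livers (log2 fold change 7.76), Lif 1.36, 1.85 and 2.81 in tumors against 0.0043, 0.00819 and 0.118 in livers, and Il6 itself 0.268, 0.753 and 1.74 in tumors against 0, 0.0921 and 0.224 in livers. Pthlh, the hormone-like peptide of tumor hypercalcemia, measured 2.1, 3.21 and 20.4 in the tumors and no more than 0.0555 in any liver.

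Higher in the liver with TMM were Igf1, Gdf15, Il1a and Inhba. Igf1 measured 0.138, 0.492 and 1.7 in the tumors and 64.8, 90.2 and 124 in the livers (log2 fold change -7.70). Gdf15, a stress cytokine, measured 0.0502, 0.176 and 0.251 in tumors against 0.765, 2.91 and 8.82 in livers, and Il1a 0.112, 0.164 and 0.691 in tumors against 0.564, 1.35 and 1.76 in livers, in contrast to Il1b with 2.99, 7.25 and 20.7 in tumors against 1.28, 2.51 and 3.43 in livers (1.80). Inhba was higher in the liver with TMM (-0.61) and higher in the tumor with total counts (0.57), and its TMM call was lost without any 1 of M4, M5, M6, M7, M10 or M12 (-0.63 to -0.46), with upper-quartile scaling (-0.43) and with no filter on low counts (-0.54). Csf2 read at most 1 count in any liver and 14 to 102 counts in the tumors. Against a floor of 3 counts per library Csf2 was at least 7.78-fold higher in the mean and 2.02-fold in the lowest tumor.

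Chemokines divided by gene. Of 25 tested, 14 were higher in the tumor under all 4 scalings, beside 42.8% of all genes, with a median of 1.53. In the liver 7 were higher with TMM, beside 38.8% of all genes, and 6 under all 4, beside 21.0%. Ligands of CCR2 were tumor genes: Ccl2 (chromosome 11 from 82035577 to 82037452) measured 46.2, 91.7 and 176 in the tumors and 0.977, 3.39 and 4.36 in the livers (log2 fold change 4.89, SE 0.24, adjusted p = 2.79e-09), Ccl7 26.6, 37.8 and 61.3 in tumors against 0.314, 1.36 and 1.79 in livers, and Ccl12 40.2, 63 and 81.9 in tumors against 0.352, 0.799 and 1.99 in livers. Their 3 ranges do not overlap between the tissues, beside 28.3% of all genes without overlap toward the tumor.

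Ligands of CXCR2, which draw neutrophils, split between the tissues. Cxcl1 (chromosome 5 from 90891245 to 90893121) measured 1.08, 2.4 and 10.3 in the tumors and 70.5, 129 and 237 in the livers (log2 fold change -5.11, SE 0.46, adjusted p = 6.49e-07), above the 2.98, 12.6 and 20.6 of the control livers. Cxcl2 measured 0.304, 8.04 and 16.9 in the tumors and 0.0185, 0.0922 and 0.166 in the livers (5.69). Cxcl3 had 12 to 714 counts in the tumors and at most 2 in the livers. Against a floor of 3 counts Cxcl3 was at least 53.9-fold higher in the mean, 46.7-fold without the highest, M8, and 1.73-fold in the lowest tumor. Cxcl12, the ligand of CXCR4, was a liver gene with 1.35, 1.67 and 3.14 in tumors against 48.3, 55.7 and 71.5 in livers (-4.96). Among ligands of CXCR3, Cxcl10 was higher in the tumor with 5.54, 17 and 55.9 in tumors against 1.57, 2.69 and 14.5 in livers, while Cxcl9 did not pass the test (0.91, adjusted p = 0.0691), although it did without M5, without M6 or without M10 (1.13 to 1.15), without M6, M10 and M12 together (1.475), with DESeq2 (0.86), with limma-voom (0.99), with upper-quartile scaling (1.09) and with total counts (2.10).

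Macrophage genes and Kupffer genes went opposite ways. Of 16 monocyte and macrophage genes, 15 were higher in the tumor under all 4 scalings (median 2.27), beside 42.8% of all genes. Of 8 Kupffer genes, 7 were higher in the liver under all 4 scalings (median -6.80), beside 21.0% of all genes. Clec4f, a lectin of Kupffer cells, measured 0, 0 and 0.183 in the tumors and 72.4, 101 and 183 in the livers. Itgam, the myeloid integrin CD11b, measured 26.4, 33.4 and 48.4 in tumors against 0.8, 2.04 and 6.75 in livers (4.15), and Gpnmb, a gene of lipid-laden macrophages, 12, 22.2 and 24.5 in tumors against 0.0526, 0.191 and 1.28 in livers (6.38). Spp1, osteopontin of macrophages and tumor cells, measured 730.1, 1237 and 1730 in tumors against 45.4, 104 and 190 in livers. Csf1r, the receptor that both kinds of macrophage carry, did not differ past the threshold with TMM (17.3, 28.5 and 44.9 in tumors against 16, 26.7 and 45.2 in livers, adjusted p = 0.786) and was 1.12 with total counts.

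Neutrophil genes divided by gene. Of 12 tested, 5 were higher in the liver and 3 in the tumor under all 4 scalings, beside 21.0% and 42.8% of all genes. Genes of granules made in precursors, namely Elane, Mpo, Ngp, Camp and Ltf, were higher in the liver. Elane read 0, 0.0112 and 0.245 in tumors against 0.137, 1.95 and 5.96 in livers. Ngp read 0, 0.071 and 0.226 in tumors against 0.0542, 3.85 and 20.7 in livers. Csf3r, the receptor of the granulocyte growth factor, Mmp8, a granule collagenase, and Mmp9, which macrophages make too, were higher in the tumor under all 4 scalings. The other 4, Cxcr2, Retnlg, S100a8 and S100a9, did not pass the test. S100a9, a calprotectin subunit, overlapped widely, with 1.73, 23 and 103 in the tumors and 5.77, 28.8 and 93.1 in the livers (adjusted p = 0.448). Among the tumors S100a9 was lowest in M4 and highest in M1, and all 5 genes higher in the liver were highest in the liver of M1.

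T and NK cell genes were higher in the tumor in 14 of 15 under all 4 scalings (median 1.88), beside 42.8% of all genes. Cd8a measured 0.938, 2.27 and 4.11 in the tumors and 0.134, 0.415 and 2.79 in the livers (2.32, adjusted p = 9.6e-05), and Prf1, perforin of killer cells, 4.42, 7.18 and 48.7 in tumors against 0.0163, 0.19 and 2.39 in livers (5.23), with the highest tumor value in M12. Foxp3 of regulatory T cells differed little, with 1.25, 1.5 and 1.95 in tumors against 0.769, 1.09 and 1.22 in livers (0.53). Its ranges did not overlap, beside 28.3% of all genes without overlap toward the tumor. Cd4 was the gene on the other side, with 0.0938, 0.313 and 0.639 in tumors against 0.307, 0.835 and 1.14 in livers, a difference of -1.60 that was -0.42 and not past the threshold with total counts.

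Of 10 B and plasma cell genes, 8 were higher in the liver with TMM, beside 38.8% of all genes. Under all 4 scalings 3 were, beside 21.0%. Derl3 measured 0.0612, 0.201 and 0.378 in the tumors and 1.77, 6.25 and 32.8 in the livers (-4.90), and Jchain of secreted antibodies 0.47, 1.78 and 7.21 in tumors against 2.11, 7.88 and 20.9 in livers. Tnfrsf17, the receptor BCMA of plasma cells, was the 1 member higher in the tumor, at no more than 0.437 RPKM.

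Antigen presentation was close between the tissues with TMM. In class I, 7 of 12 genes were higher in the tumor and 3 in the liver with TMM, beside 43.9% and 38.8% of all genes. Under all 4 scalings 6 and 0 were, beside 42.8% and 21.0%. With total counts 11 were higher in the tumor and 0 in the liver (median 1.53), beside 67.5% and 21.0%. Tap1, the peptide transporter, measured 23.4, 40.4 and 75.2 in the tumors and 16.5, 20.1 and 31.2 in the livers (0.98), and B2m 1058, 1439 and 1776 in tumors against 1660, 2078 and 2391 in livers, which was -0.56 with TMM and 0.62 with total counts. In class II, 3 of 9 genes were higher in the tumor with TMM, beside 43.9% of all genes. Under all 4 scalings 2 were, beside 42.8%, and with total counts 8 were (median 1.14), beside 67.5%. H2-Aa, a class II chain, overlapped fully with 13.4, 38.9 and 125 in tumors against 27.6, 39.7 and 91.3 in livers (adjusted p = 0.895), and was 1.14 with total counts.

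Genes of sinusoidal and of general endothelium divided between the tissues. Of 10 sinusoidal genes, 7 were higher in the liver and 3 in the tumor with TMM, beside 38.8% and 43.9% of all genes. Under all 4 scalings 6 and 3 were, beside 21.0% and 42.8%. Clec4g measured 0, 0 and 0.0424 in the tumors and 9.21, 28.9 and 50.5 in the livers, and Stab2, the hyaluronan receptor, 0.0094, 0.0202 and 0.0787 in tumors against 8.16, 14.5 and 19.7 in livers (-9.16, SE 0.32). Stab1, Fcgr2b and Bmp2 were the 3 higher in the tumor, of which the first 2 are also made by macrophages. The call of Fcgr2b was lost without M6, M10 and M12 together (0.66). Of 10 pan-endothelial genes, 5 were higher in the liver and 2 in the tumor with TMM, beside 38.8% and 43.9% of all genes. Under all 4 scalings 3 and 1 were, beside 21.0% and 42.8%. Cdh5, the endothelial cadherin, overlapped, with 5.38, 7.86 and 12.5 in tumors against 3.1, 8.6 and 11.9 in livers (adjusted p = 0.808), while Vwf measured 0.0479, 0.166 and 0.228 in tumors against 1.09, 1.85 and 2.47 in livers (-3.61).

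Markers of neighbouring tissues were read in both tissues. Of 12 smooth muscle genes, 3 were higher in the tumor under all 4 scalings, beside 42.8% of all genes. With TMM only, 1 was higher in the liver, beside 38.8%. Of 6 red cell genes, 6 were higher in the liver under all 4 scalings, beside 21.0% of all genes. The summed level of the list was 28.1 to 226 RPKM in the tumors and 781 to 1773 in the livers. The summed level of 7 skeletal muscle genes ran from 0.436 to 272 RPKM in the tumors, where Acta1 read 136 in M4, 31.4 in M7 and 0.0159 to 0.649 in the other 7. Msln, mesothelin, was higher in the tumor with 31, 54.8 and 79.9 in tumors against 2.02, 4.22 and 10.4 in livers. The other 4 tested mesothelial genes were higher in the liver (3 under all 4 scalings), beside 38.8% and 21.0% of all genes. Of 4 tested adipocyte genes, 3 were higher in the liver with TMM and 1 under all 4 scalings, beside 38.8% and 21.0% of all. Of 4 enteric neuron and glia genes, 1 was higher in the tumor and 2 in the liver with TMM, beside 43.9% and 38.8%. Among pancreas genes, Cela1 was higher in the liver and Prss2 in the tumor, with Prss2 at 5.46 in M6 and at or under 0.246 in the other 8. The part of these tissues in the results above was not tested.

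Among oncofetal genes, 5 of 9 tested were higher in the tumor and 1 in the liver under all 4 scalings, beside 42.8% and 21.0% of all genes. Hmga2 (chromosome 10 from 120361268 to 120476935) measured 40, 56.7 and 64.1 in the tumors and 0.028, 0.164 and 2.52 in the livers (8.27, SE 0.60, and 9.12 without the 3 mice), and Hmga1 163, 219 and 250.3 in tumors against 3.18, 5.16 and 16.7 in livers. The imprinted gene H19 varied widely within both tissues, with 0.131, 0.883 and 15.7 in tumors against 0.138, 0.75 and 10.5 in livers (adjusted p = 0.886).

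The most abundant mRNAs had little in common. In the tumors they were Eef1a1, COX1, Tpt1, Rplp1, Rpl41, Lgals1, Rpl12 and Rpl13, mostly of the translation machinery, and in the livers Alb, Trf, Hpx, Apoa1, Apoe, Fgb, Hp and COX1, plasma proteins apart from the mitochondrial oxidase subunit. Lgals1, galectin 1, measured 1681, 2378 and 3007 in the tumors and 17.6, 34.4 and 129 in the livers. Apoe, which macrophages make too, kept 203, 327 and 734 in the tumors against 12902, 13543 and 16904 in the livers, a smaller fall (-5.21) than that of Apoa1 (-12.23).

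At the floor of at most 3 counts in every liver were 327 genes with at least 10 counts in every tumor, 117 of them protein-coding. At the floor in every tumor were 273 genes with at least 10 counts in every liver, 95 of them protein-coding. The casein gene Csn3 had 100 to 3746 counts in the tumors (at least 109-fold higher in the mean, 66.5-fold without the highest, M10, and 13.7-fold in the lowest). Aldh3a1, an aldehyde dehydrogenase, had 23 to 3090 (at least 98.1-fold in the mean, 53.7-fold without M7 and 3.84-fold in the lowest tumor). Toward the liver, Mup8, a urinary protein of a family of near-identical copies, had 63 to 6691 counts (at least 2342-fold in the mean and 53.3-fold in the lowest liver). Hamp2, a copy of hepcidin, had 39 to 1062 (at least 240.2-fold in the mean, 150.7-fold without M2 and 22.9-fold in the lowest liver).

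Some genes stayed level with TMM. The narrowest intervals around 0 on that scale belonged to Swi5, Vps4b, Wdr48, Vapb, Fam21, Atp6v0c, Mrpl42 and Atp6v1g1. Swi5, a recombination factor, measured 73.5, 83.5 and 103 in the tumors and 76.5, 82.9 and 96.9 in the livers, with a 95% confidence interval of -0.12 to 0.13. With total counts the same gene was at 1.19 and with upper-quartile scaling at 0.18, both past the threshold, which it did not pass with DESeq2 size factors. Of 17 common reference genes, 11 were higher in the tumor and 4 in the liver with TMM, beside 43.9% and 38.8% of all. Under all 4 scalings 11 and 2 were, beside 42.8% and 21.0%. Actb rose by 1.54 and Gapdh by 0.84, Sdha was lower as well, and Hprt (0.20, adjusted p = 0.106) and Tfrc (-0.07, adjusted p = 0.73) did not pass the test, which Hprt did without M2 (0.29), with upper-quartile scaling (0.38) and with total counts (1.38).

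Among the genes with the largest spread of the within-mouse difference, Acta1 varied most among the tumors, as given above, and others varied among the livers. Dmbt1, a mucosal and bile duct protein, measured 0.0454, 2.13 and 141 in the livers and at most 1.23 in the tumors, and the high liver was M12. Trim30c read 48.2, 37.9 and 30.6 in M8, M10 and M12 and at or under 0.484 in the other 6. Oas1a, an interferon-induced synthetase, fell into 2 sets of livers, at 3.69 to 9.37 in M1, M4, M6 and M8 and at or under 0.0636 in the other 5, while all 9 tumors lay at 7.03, 14.6 and 26.5. Of 15 core clock genes, 8 were higher in the liver and 2 in the tumor with TMM, beside 38.8% and 43.9% of all genes. Under all 4 scalings 3 and 2 were, beside 21.0% and 42.8%. Dbp, an output gene of the clock, ran over 0.554, 10 and 126 in the livers and 3.18, 12.2 and 43.7 in the tumors (adjusted p = 0.387), although it passed the test with limma-voom (-1.29).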

How the data were processed

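Poly(A) RNA of 9 primary tumors, the 9 livers of the same mice and 5 control livers was sequenced (NEBNext Ultra). The authors deposited 1 table with raw counts per gene and RPKM per library, and the submitters' processing notes name HISAT2, HTSeq 0.6.0 and mm10, with the annotation not given in the sources used here. The deposited RPKM were recomputed from counts and lengths only as a check. Of 48895 gene symbols, the 19749 with at least 10 counts in at least 5 of the 18 libraries were tested with edgeR 4.0.16 (R 4.3.3, TMM, quasi-likelihood, mouse as block), called at an adjusted p under 0.05, and past a 2-fold change with glmTreat. DESeq2 1.42.0, limma-voom 3.58.1, other scalings, no block, no filter and left-out mice were tried as alternatives. Scripts were tested on simulated data. Tumor and liver are paired because the labels give the same mouse: deviations of same-mouse samples correlated at 0.0667 on average, against -0.00859 for other mice, and 3 of 9 tumors were closest to their own liver. No duplicate libraries were found. Isoenzyme shares were compared by an exact sign-flip test over mice. Gene positions are those of the deposited table (mm10), and promoters are from RefSeq GRCm38.p6, which matched 12761 tested genes.

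Genes named are the 12 largest rises and falls (adjusted p under 0.05, same direction in 9 of 9 mice, mean of at least 20 RPKM in the higher tissue, more than 3 counts in at least 1 library of the lower), the 8 highest in each tissue, the 8 with the largest spread of the within-mouse difference, the 8 at the floor of 3 counts with the highest level in the other tissue, the 8 with the narrowest interval around 0, and members of fixed lists. The members and lists were chosen with earlier results of these data known. Counting error is the only error that the floor covers. Strand was not used as far as the sources tell, so a gene and its antisense partner cannot be told apart. A few genes that meet these rules, and the shares of 3 families, are not reported here.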

Additional observations from a re-analysis of the deposited data

Results flagged for a closer look

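In each group of 9 libraries the highest or lowest library was compared with its nearest neighbour, for every gene named and tested and for the shares of 18 isoenzyme families. The gap to the neighbour and the whole range were taken on the log2 scale for genes and in percent for shares. In 38 of 413 groups the gap as a share of the range was above Dixon's 95% critical value for 9 samples. Chance gives about 1 in 20. The liver of M6 was such a library in 12 of the 38 groups. The 9 groups with at most 3 counts in every library were left out. Dkk2 at 0.608 RPKM, Ereg at 0.4931 RPKM, Fosl1 at 2.36 RPKM, Hmga2 at 2.52 RPKM, S100a4 at 57.5 RPKM, Sema3a at 1.06 RPKM, Slc1a5 at 4.83 RPKM, Timp1 at 11 RPKM and Vim at 107 RPKM stood above the other 8 in the pre-metastatic liver of M6. Cd8a at 2.79 RPKM, Cxcl10 at 14.5 RPKM and Cxcl9 at 39.3 RPKM stood above the other 8 in the pre-metastatic liver of M5. Car9 at 4.18 RPKM stood above the other 8 in the pre-metastatic liver of M12. Ldha at 1435 RPKM stood above the other 8 in the pre-metastatic liver of M7. Fosl1 at 83.1 RPKM and Gapdh at 714 RPKM stood above the other 8 in the primary tumor of M1. Camp at 0.319 RPKM and Tfrc at 13.8 RPKM stood above the other 8 in the primary tumor of M7. Trim30c at 3.84 RPKM stood above the other 8 in the primary tumor of M2. Prss2 at 5.46 RPKM stood above the other 8 in the primary tumor of M6. Il11 at 18.4 RPKM stood above the other 8 in the primary tumor of M8. Elane at 0.137 RPKM, Il6 at 0 RPKM and Mmp8 at 0.0128 RPKM stood below the other 8 in the pre-metastatic liver of M2. Cd4 at 0.307 RPKM and Cdh2 at 8.76 RPKM stood below the other 8 in the pre-metastatic liver of M6. Eif2s3y at 7.4 RPKM stood below the other 8 in the pre-metastatic liver of M4. Arg1 at 17 RPKM, Gdf15 at 0.0502 RPKM and Mmp8 at 0.153 RPKM stood below the other 8 in the primary tumor of M4. Lum at 0.752 RPKM, Tnfrsf17 at 0.0841 RPKM and Trp53 at 28.5 RPKM stood below the other 8 in the primary tumor of M6. Pck1 at 98.7% had a lower share of its family than in the other 8 in the pre-metastatic liver of M6. Pklr at 0.0757%, Mat1a at 8.31% and G6pc at 1.35% had a higher share of its family than in the other 8 in the primary tumor of M12. Cpt1a at 89% had a lower share of its family than in the other 8 in the primary tumor of M4. The causes were not tested.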

How the results depend on the processing

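Total-count scaling moved the counts most: 13323 genes were higher in the tumor and 4151 in the liver, and 10255 and 3047 past a 2-fold change, because it shifts the median log2 fold change of all genes by 1.18. Under it these named genes turned direction: Atp5b 0.62, Atp6v0c 1.09, B2m 0.62, Csf1r 1.12, Foxa1 0.20, H2-Aa 1.14, Inhba 0.57, Ldha 0.77, Lum 0.17, Mrpl42 1.10, Saa3 0.10, Shmt2 0.77, Tfrc 1.11, Vegfa 0.998 and Vps4b 1.16, and under upper-quartile scaling Vps4b 0.16. Requiring at least 50 counts in every library of the other tissue left 81 genes at the floor in the liver and 108 in the tumor. All other alternatives kept the 4 counts of genes within 1.5 times. The difference of the phosphofructokinase share was -10.95 percentage points by counts, past the threshold, and -4.43 to -2.25 when each mouse was left out in turn, past it only without M5. The difference of the fructose-bisphosphatase share was -36.0 and lost the threshold without M6, M10 and M12, a setting chosen after seeing the data, in which 6 mice allow no p under 0.0312. Without the mouse as a block, in spite of the pairing, 8648 genes were higher in the tumor and 7809 in the liver, 5218 and 4910 past 2-fold, Saa3 lost its call (-0.79) and Trim30c gained one (-3.85), as it did with limma-voom and the block (-3.67). Ratios of genes near 0 counts in 1 tissue are limited by depth.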
